A study of Mus musculus with 12 samples.

Results

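ILC1 and NK cells sorted from the livers of the same obese mice were compared by RNA sequencing. The comparison holds 6 of the 12 libraries of the series, chosen by their labels: ILC1 from obese mice 25, 26 and 27, and NK cells from the same 3 animals, so that each mouse gave 1 library of each cell type. The mice were female C57BL/6, given as C57BL/6J in the methods, weaned onto diet 824018, called 45% AFE fat, with condensed milk added, and kept on it for 12 weeks. Lean mice of the same strain ate RM1 chow for as long and gave the other 6 libraries, 3 of ILC1 and 3 of NK cells, which are used here only where the lean liver is named. Both cell types were gated as lineage-negative and NK1.1+. NK cells were CD49a- CD49b+ and ILC1 were CD49a+ CD49b-. Libraries were made from 2 ng of RNA, so each is a bulk measurement of a small sorted sample.

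NK cells and ILC1 are innate lymphocytes that share the receptor NK1.1 and the production of interferon gamma. NK cells circulate and kill infected or transformed cells with perforin and granzymes. ILC1 are tissue-resident relatives that are abundant in the liver, where they sit in the sinusoids, carry CXCR6 and CD200R1, and are less cytotoxic.

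The table as analysed holds 5545 genes, in alphabetical order of symbol as far as Cyp26b1, and later symbols were not analysed here. The obese NK libraries held 2306550 to 2826766 counts in these genes and the obese ILC1 libraries 1666637 to 2541651. Levels are given as CPM, counts scaled to a common library size after TMM scaling, in the order of mice 25, 26 and 27. Genes were called where edgeR's quasi-likelihood test gave a Benjamini-Hochberg adjusted p under 0.05 and the fold change was over 2, and log2 fold changes are ILC1 relative to NK cells, with their standard errors (SE). The p-values measure the spread between these libraries. In bulk samples, fewer cells of a type and less RNA per cell cannot be told apart.

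The labels were checked against markers of both cell types. Cxcr6, Cd200r1, Cxcr3 and Ahr, listed as ILC1 markers, were above every NK library in all 3 ILC1 libraries, and Cma1, listed for NK cells, was below. Cd69 and Cx3cr1, the other 2 listed markers, overlapped. The genes of NK1.1, CD49a and CD49b were not analysed here.

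Of the 3 obese ILC1 libraries, ILC1 26 stood apart from both others and from the NK libraries. Albumin (Alb), the main secreted protein of hepatocytes, was at 73420 CPM in ILC1 26, at 308 and 59.9 CPM in ILC1 25 and 27, and at 195, 162 and 38.3 CPM in the NK libraries. Csf1r, the receptor for the macrophage growth factor CSF1, was at 4431 CPM in ILC1 26 against 0 and 113 CPM in the other ILC1 libraries and 3.48 to 8.92 CPM in NK cells. Cd79a, a chain of the B cell receptor complex, was at 2508 CPM in ILC1 26, 0 and 15.6 CPM in the other ILC1 libraries and 1.03 to 9.32 CPM in NK cells. All 3 genes were thus above every other obese library in ILC1 26 alone. This library had been set apart beforehand because of these 3 genes, so their values describe it and are no test.

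Whole lists of markers were summed as well. Alb, Csf1r and Cd79a are members of them, and the lists were written with earlier results of these data known. Together, 88 markers of hepatocytes, macrophages, B cells, neutrophils, endothelial, stellate and dendritic cells, basophils or mast cells and erythroid cells took 16.9% of the counts of ILC1 26, in which only 1 of them was at 0. They took 0.653% of ILC1 25 (54 markers at 0), 0.83% of ILC1 27 (32 at 0), 0.544% to 0.584% of the NK libraries and 0.345% to 0.427% of the lean libraries. Hepatocyte markers made up 11.5% of ILC1 26, which was 136 times the highest of the other 5 libraries. Macrophage markers made up 2.9% (15.6 times), endothelial markers 0.927% (23.9 times), B cell markers 0.793% (4.66 times), neutrophil markers 0.299% (128 times) and dendritic cell markers 0.176% (34.5 times). Stellate cell markers were at 0.0381% (10.2 times) and basophil or mast cell markers at 0.0124% (3.66 times). Erythroid markers, at 0.242%, were not above the highest other library (0.563 times), and neither were T cell markers, at 0.334% (0.419 times). The part of this material in the differences below was not tested, and each called gene is therefore given with and without ILC1 26. For genes that were not called, the adjusted p is from the comparison without ILC1 26 unless stated.

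**Figure D1:**
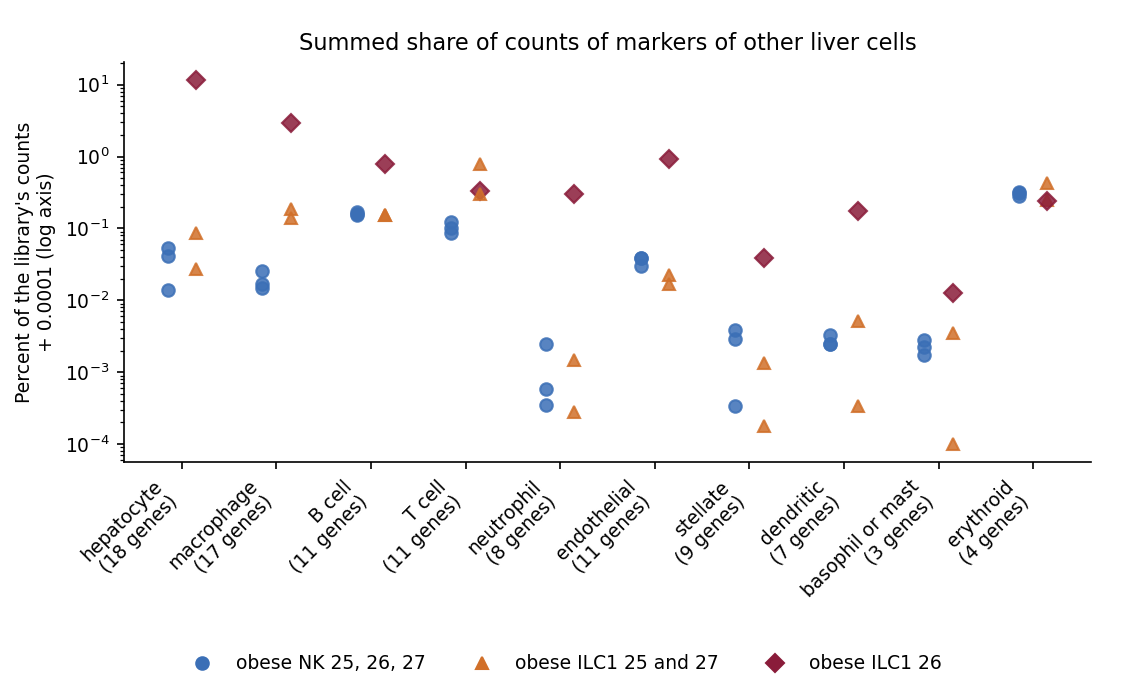
Summed share of counts (percent of all counts of the genes analysed plus 0.0001, log axis) taken by marker lists of other liver cells in each of the 6 obese libraries. Points are libraries, and ILC1 26 is drawn apart from the other libraries. ILC1 26 lies above every other library for 8 of the 10 lists, with hepatocyte markers at 11.5%.

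The remaining ILC1 libraries also had a higher summed share of macrophage markers than the NK libraries. These markers took 0.141% and 0.187% of ILC1 25 and 27 against 0.0148% to 0.0253% of the NK libraries. Hepatocyte markers took 0.0851% and 0.0274% against 0.0137% to 0.0532%. The summed share of the macrophage list was higher in all 3 ILC1 libraries. The exact two-sided permutation p over all 6 libraries was 0.1, the smallest that 3 against 3 can give. It includes ILC1 26, which was set apart for Csf1r, a member of this list, so it is a description and no test. Lists other than those of macrophages and T cells had a permutation p of 0.3 to 1.0. Of the 17 macrophage markers, 9 were at 0 in ILC1 25, Csf1r among them, and 1 in ILC1 27, against 0 to 2 in the NK libraries. Among those above 0 were Adgre1, which encodes F4/80, at 322, 1770.1 and 78.5 CPM against 0 to 3.65 CPM in NK cells, and Axl, a receptor tyrosine kinase, at 243, 776 and 59.9 CPM against 0.685 to 4.86 CPM. Neither passed the test without ILC1 26 (adjusted p of 0.141 for Adgre1 and 0.13 for Axl). Of the 15 macrophage markers tested there, 6 were higher and 1 lower at an unadjusted p under 0.05, beside 8.41% and 9.2% of all genes. DESeq2 called 6 higher and 1 lower, beside 123 and 158 of all 2789 genes. T cell markers, which include the CD3 chains, took 0.796% of ILC1 25 and 0.297% of ILC1 27 against 0.0853% to 0.121% of NK cells (exact permutation p of 0.1 over all 6 libraries). Of the 11 T cell markers, 5 were at 0 in ILC1 25, where Cd3g alone was at 6366 CPM.

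ILC1 25 differed from the rest in another way. Of the 5545 genes, 2014 had a count there, against 2757 in ILC1 27, 3292 in ILC1 26 and 3075 to 3084 in the NK libraries. Of 2447 genes tested, 433 had at most 3 counts in ILC1 25 and at least 10 CPM in each of the other 5 libraries, while 1 gene did so in ILC1 26, 1 in ILC1 27 and 0 in each NK library. Among the 581 genes more than 1 log2 unit lower in ILC1 without ILC1 26, 474 had at most 3 counts in ILC1 25, against 51 of the 336 genes more than 1 log2 unit higher. The part of ILC1 25 in these lower values was not tested. The 5 genes called lower below had counts in every library.

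With all 6 libraries, 0 of 2447 genes were called in either direction (percent called 0.0). The smallest adjusted p was 0.108, and 173 genes were higher and 100 lower in ILC1 at an unadjusted p under 0.05. DESeq2 called 109 higher and 64 lower on the same libraries, and edgeR's likelihood-ratio test called 64 and 26. Every ILC1 library was above every NK library for 219 genes (8.95%) and below for 385 (15.7%). Without ILC1 26, 17 of 2521 genes were called higher in ILC1 (0.674%) and 5 lower (0.198%). Here DESeq2 called 123 and 158, and these included all 22 genes. With the mouse as a replicate block, NK 26 had no partner, so the difference rested on the pairs of mice 25 and 27. In that fit 7 of the 17 kept their call, namely Cd200r1, Cd200r2, Cxcr6, Ccl1, Cd7, Cd160 and Asb2, and none of the 5 did. The calls also rested on the NK libraries, since without NK 25 or NK 27 none of them remained, and without NK 26 the 4 calls were Cd200r1, Cd200r2, Cxcr6 and Asb2. With ILC1 27 or ILC1 25 as the lone ILC1 library, assumed to vary like the NK libraries, 217 and 421 genes were called higher and 248 and 1001 lower.

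**Figure D2:**
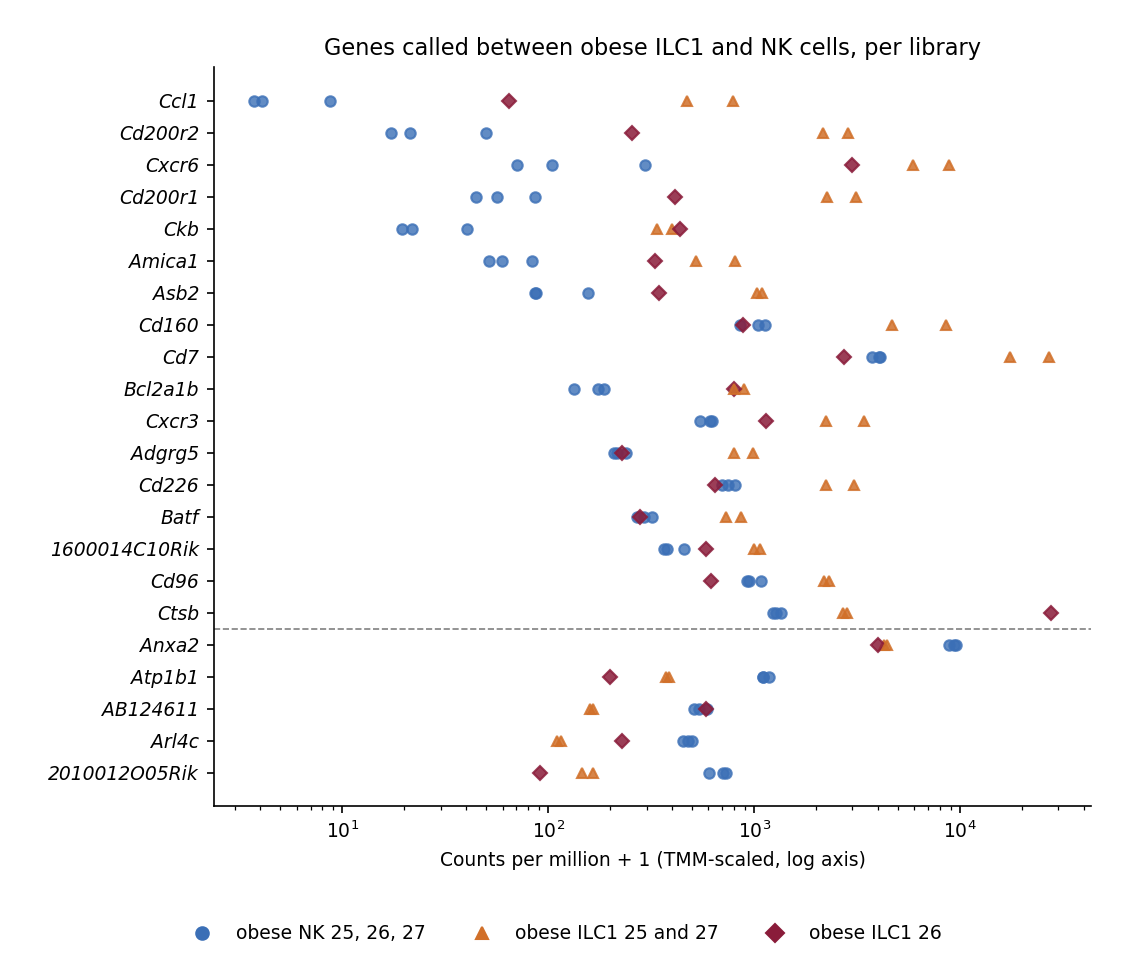
CPM plus 1 (log axis) of the 22 genes called between obese ILC1 and obese NK cells without ILC1 26, in each of the 6 obese libraries. Points are single libraries, with ILC1 26 marked apart, and a dashed line divides the 17 genes higher in ILC1 from the 5 lower ones. For 15 of the 17, ILC1 26 lies below both other ILC1 libraries.

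Of the 17 genes called higher, 15 were lower in ILC1 26 than in both other ILC1 libraries, with a median ratio of 0.324 to their mean. ILC1 26 was nevertheless above all NK libraries for 11 of the 17 and below all of them for 3 (Cd7, Cd226 and Cd96). Of 48 markers of other liver cells tested with and without ILC1 26, 46 were more than 1 log2 unit higher in ILC1 when it was included, against 368 of all 2447 genes. As ILC1 26 was set apart for such markers, this describes the library and is no test.

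**Figure D3:**
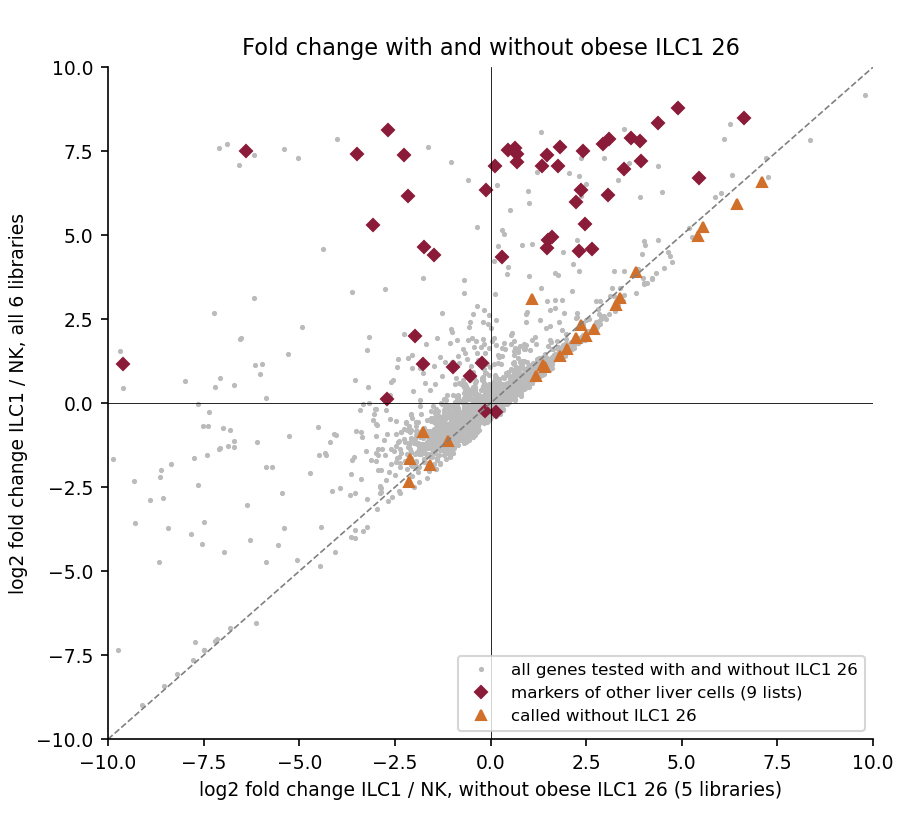
Log2 fold change of obese ILC1 over obese NK cells for 2447 genes with all 6 libraries (vertical axis) against that without ILC1 26 (horizontal axis). Markers of 9 lists of other liver cells and the 22 genes called without ILC1 26 are coloured. Of the 48 markers, 46 lie more than 1 log2 unit above the diagonal, which describes ILC1 26, set apart for such markers, and is no test. Of the called genes, Ctsb lies farthest above it, at 3.12 with and 1.09 without ILC1 26.

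The gene lists below were written with earlier results of these data known. Over all genes tested without ILC1 26, 0.674% were called higher and 0.198% lower. The calls in each list are to be read beside these shares. Chemokine receptors and ligands held 3 of the called genes. Without ILC1 26, 2 of 10 tested receptors and 1 of 10 tested ligands were called higher in ILC1 and none was called lower. Cxcr6, the receptor for CXCL16 that liver ILC1 use to stay in the sinusoids (chr9:123806475-123811760), was at 8845, 2986 and 5883 CPM in the ILC1 libraries and at 103, 293 and 69.2 CPM in the NK libraries. The groups did not overlap even in ILC1 26, and the log2 fold change was 5.56 (SE 0.71, adjusted p of 0.0479) without it and 5.25 (SE 0.76, adjusted p of 0.149) with it. Cxcr3, the receptor for the interferon-induced chemokines CXCL9 and CXCL10 (chrX:101731535-101734269), was at 3420.4, 1138 and 2242 CPM in ILC1 against 547, 611 and 622 CPM in NK cells, again without overlap. Its log2 fold change was 2.24 (SE 0.20, adjusted p of 0.0198) without ILC1 26 and 1.93 (adjusted p of 0.169) with it.

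Ccl1, which encodes a chemokine ligand of CCR8, had the largest fold change of the called genes, though its level was lower. It was at 785, 63.5 and 470.5 CPM in ILC1 and at 7.7, 3.08 and 2.7 CPM in NK cells, with a log2 fold change of 7.10 (SE 0.64, adjusted p of 0.0198) without ILC1 26 and 6.58 (adjusted p of 0.149) with it. Its receptor gene Ccr8 was at 98, 8.35 and 154 CPM in ILC1 and at 0, 0 and 2.32 CPM in NK cells. Ccr8 was not called in the 5 libraries without ILC1 26 (adjusted p of 0.148). Ccl5, a chemokine listed for both cell types, was at 29912, 5955 and 21706 CPM in ILC1 and 36779 to 39876 CPM in NK cells. It was below every NK library in all 3 ILC1 libraries but not called (adjusted p of 0.177). Cx3cr1, the fractalkine receptor of NK cells and monocytes, was at 710.0, 461 and 882 CPM in NK cells. It was at 2.48 and 163 CPM in ILC1 25 and 27 but at 1481 CPM in ILC1 26, so the groups overlapped, and it was not called without ILC1 26 either (adjusted p of 0.376). The receptor list had a median log2 fold change of 0.13 and the ligand list of -0.18, beside -0.16 over all genes tested without ILC1 26.

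The list drawn up as inhibitory receptors had the most calls, 4 of 17 tested members higher in ILC1 and none lower. Over all genes tested, 0.674% were called higher and 0.198% lower. The list was written with earlier results of these data known, so its rank is a description and no test. Its median log2 fold change was 1.7. The 4 were Cd200r1, Cd200r2, Cd160 and Cd96, and whether each of them inhibits in these cells was not tested. Cd200r1, the receptor through which the widespread surface protein CD200 restrains immune cells (chr16:44765736-44794978), was at 3118, 409 and 2248 CPM in ILC1 and at 43.4, 85.3 and 55.6 CPM in NK cells. Its log2 fold change was 5.44 (SE 0.35, adjusted p of 0.0198) without ILC1 26 and 4.96 (adjusted p of 0.149) with it, and the groups did not overlap. Cd200r2, a neighbour of the same family (chr16:44867097-44915840), was at 2869.7, 255 and 2163 CPM against 20.3, 49 and 16.2 CPM, with a log2 fold change of 6.45 (SE 0.57, adjusted p of 0.0198) without ILC1 26 and 5.94 (adjusted p of 0.149) with it. As the members of this family are similar in sequence, reads between them could have been split or lost in counting.

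Cd160, a receptor for the ligand HVEM and for MHC class I (chr3:96798763-96829351), was at 8553 and 4675 CPM in ILC1 25 and 27 and at 1038, 1125 and 857 CPM in NK cells. ILC1 26, at 882 CPM, lay among the NK libraries, so the groups overlapped, and the log2 fold change was 2.71 (SE 0.29, adjusted p of 0.025) without it and 2.22 (adjusted p of 0.349) with it. Cd96, which binds the nectin-like protein CD155 (chr16:46035657-46120251), was at 2309.8 and 2194 CPM in ILC1 25 and 27, at 616 CPM in ILC1 26 and at 926, 941 and 1079 CPM in NK cells. Its log2 fold change was 1.19 (SE 0.12, adjusted p of 0.0235) without ILC1 26 and 0.80 (adjusted p of 0.626) with it. Cd244, which encodes the receptor 2B4 of both cell types, was at 4100.0, 885 and 2312 CPM in ILC1 and 2906, 2673 and 3102 CPM in NK cells, with overlap and no call (adjusted p of 0.838).

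The bases before the start sites of 3 of these receptor genes are shown because each holds letters of a motif of factors known from innate lymphocytes. The stretches run from 155 to 6 bases before the start in RefSeq's annotation of GRCm38.p6, and are written 5′ to 3′ on the strand of the gene. Capitals mark the T-box half-site AGGTGTGA, read here as its reverse complement, in Cd200r2 (chr16:44866942-44867091, plus strand), and the RUNX letters TGTGGTT, likewise as the reverse complement, in Cd160 (chr3:96829357-96829506, minus strand) and Cd96 (chr16:46120254-46120403, minus strand).
Cd200r2: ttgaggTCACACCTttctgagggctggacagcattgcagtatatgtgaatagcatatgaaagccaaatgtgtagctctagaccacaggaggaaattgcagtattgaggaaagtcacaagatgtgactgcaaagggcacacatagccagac
Cd160: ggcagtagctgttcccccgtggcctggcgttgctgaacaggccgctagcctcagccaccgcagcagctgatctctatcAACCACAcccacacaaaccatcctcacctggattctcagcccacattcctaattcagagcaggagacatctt
Cd96: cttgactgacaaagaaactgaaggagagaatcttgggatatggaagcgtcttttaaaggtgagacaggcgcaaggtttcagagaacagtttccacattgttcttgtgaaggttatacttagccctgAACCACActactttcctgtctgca
The first marked base lies 149 bases before the start in Cd200r2, 77 in Cd160 and 29 in Cd96.

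Of the 17 genes called higher, 13 matched a promoter entry of 300 bases (250 before and 50 after the start), and all 5 called lower did. The RUNX letters were present on either strand in 5 of the 13 (Asb2, Batf, Cd160, Cd96 and Cxcr3) and in 0 of the 5, and in 6.09% of all 27025 genes. The T-box letters were in 1 of the 13 (Cd200r2) and in 1.48% of all genes. Of the other motifs searched, TTCNNNGAA, bound by STAT factors, was in 2 of the 13 (Cd160 and Cd96) and 9.55% of all genes, and the E-box CACGTG was in 1 (Asb2) and 8.09%. The AP-1 letters TGANTCA were in 1 gene of each direction (Bcl2a1b and Anxa2) and 8.97% of all genes. The ETS letters ACCGGAAGT and the cAMP response element TGACGTCA were in none of these genes and in 1.21% and 2.03% of all genes. These matches are counts of letters and were not tested.

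Among 12 tested costimulatory and activating receptors, 2 were called higher in ILC1 and none lower. Cd7, an immunoglobulin superfamily receptor of T and NK cells (chr11:121036747-121039418), was the most abundant of the called genes, at 27199 and 17547 CPM in ILC1 25 and 27 and at 3733, 4067 and 4032 CPM in NK cells. ILC1 26 was at 2738 CPM, below all NK libraries. The log2 fold change was 2.50 (SE 0.20, adjusted p of 0.0198) without it and 2.00 (adjusted p of 0.39) with it. Cd226, the activating receptor that shares the ligand CD155 with CD96, was at 3041, 644 and 2222 CPM against 696, 805 and 742 CPM, and its log2 fold change was 1.81 (SE 0.17, adjusted p of 0.0198) without ILC1 26 and 1.39 (adjusted p of 0.401) with it. The 2 receptors for CD155 in the table were thus both called higher in ILC1 once ILC1 26 was left out. Cd27, a receptor of the tumour necrosis factor family, was at 1357, 353 and 1083 CPM in ILC1 against 537, 627 and 627 CPM in NK cells and was not called in the 5 libraries (adjusted p of 0.0793). Cd69, the early activation antigen that also marks resident lymphocytes, was at 1898, 1931 and 1252 CPM against 1075, 1457 and 962 CPM, with overlap between the groups and an adjusted p of 0.491. Cd2, an adhesion receptor, was lower in every ILC1 library, at 1299.7, 1386 and 2090.2 CPM against 3825, 3752 and 3883 CPM, with a log2 fold change of -1.18 and an adjusted p of 0.112.

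The CD3 chains differed from one another. Cd3g, which encodes CD3γ, was at 6366, 1663 and 1044 CPM in ILC1 and at 124, 200.1 and 105 CPM in NK cells, without overlap (log2 fold change 4.68, SE 0.81, adjusted p of 0.0988 without ILC1 26). Cd3d, which encodes CD3δ and lies beside Cd3g on chromosome 9, was at 226, 736 and 282 CPM against 125, 189 and 97 CPM, also without overlap (log2 fold change 0.88, adjusted p of 0.344). Cd3e was at 187, 703 and 102 CPM against 38.1, 57.6 and 21.3 CPM (log2 fold change 1.88, adjusted p of 0.231). Cd247, the zeta chain that NK cell receptors signal through, was on the other side, at 1041, 385 and 523 CPM in ILC1 and 1570.3, 1639 and 1779 CPM in NK cells (log2 fold change -1.10, adjusted p of 0.166). The chains Cd3g, Cd3d and Cd3e were highest in different ILC1 libraries, Cd3g in ILC1 25 and the other two in ILC1 26. None of the 7 tested members of the list was called in the 5 libraries, where 2 were higher and 1 lower at an unadjusted p under 0.05 (8.41% and 9.2% of all genes tested) and DESeq2 called 2 higher.

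Of 14 tested adhesion molecules and adhesion G protein-coupled receptors, 2 were called higher in ILC1 and none lower. Amica1, now named Jaml, a junctional adhesion molecule of leukocytes (chr9:45079183-45108534), was at 519.6, 329 and 808 CPM in ILC1 and at 50.7, 81.9 and 58.3 CPM in NK cells, with a log2 fold change of 3.37 (SE 0.35, adjusted p of 0.0235) without ILC1 26 and 3.12 (adjusted p of 0.138) with it. Adgrg5, an orphan adhesion receptor (chr8:94923694-94943280), was at 798, 227 and 982 CPM against 208, 237 and 214 CPM. ILC1 26 lay among the NK libraries, and the log2 fold change was 2.01 (SE 0.18, adjusted p of 0.0198) without it and 1.60 (adjusted p of 0.348) with it. With the lean libraries in the model its adjusted p was 0.309, and among those libraries Adgrg5 ran from 1.9 to 82.9 CPM in NK cells.

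Of 26 transcription factors tested, Batf alone was called. Batf, an AP-1 family factor of activated lymphocytes (chr12:85686669-85709087), was at 861, 278 and 726 CPM in ILC1 and at 290.1, 316 and 269 CPM in NK cells, with a log2 fold change of 1.43 (SE 0.18, adjusted p of 0.0446) without ILC1 26 and 1.09 (adjusted p of 0.411) with it. Ahr, the aryl hydrocarbon receptor, which ILC1 of the liver are known to express, was at 80, 62.6 and 116 CPM in ILC1 and 5.67, 15.1 and 20.1 CPM in NK cells. The groups did not overlap, but the test did not pass (log2 fold change 2.84, SE 0.82, adjusted p of 0.172). Bhlhe40, a repressor of the clock and cytokine genes, was lower in every ILC1 library, at 1587, 1889 and 2222 CPM against 4211, 4893 and 3615 CPM, with a log2 fold change of -1.16 and an adjusted p of 0.111. The list had a median of -0.22, near that of all genes.

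Regulators of signalling and survival each held 1 call. Asb2, which encodes the substrate receptor of a ubiquitin ligase (chr12:103321142-103356001), was 1 of 9 tested brakes and ligases, at 1093, 344 and 1034 CPM in ILC1 and 85.5, 155 and 86.2 CPM in NK cells. Its log2 fold change was 3.28 (SE 0.33, adjusted p of 0.0235) without ILC1 26 and 2.92 (adjusted p of 0.149) with it. Cish, the cytokine-induced inhibitor of STAT signalling, was at 188, 128 and 211 CPM against 42.5, 60 and 52.2 CPM, without overlap or a call (log2 fold change 1.94, adjusted p of 0.128). Bcl2a1b, of the anti-apoptotic A1 family (chr9:89199209-89207827), was 1 of 28 tested members of its list. It was nearly level across the ILC1 libraries, at 895, 797 and 797 CPM, against 173, 185 and 133 CPM in NK cells, and its log2 fold change of 2.36 (SE 0.22, adjusted p of 0.0198) hardly differed with ILC1 26 (2.34, adjusted p of 0.108). Its near copy Bcl2a1d was at 134, 282 and 376 CPM against 21.9, 36.7 and 28.6 CPM (adjusted p of 0.112). The copies of A1 are near-identical, so how their reads were divided is uncertain.

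Ctsb, which encodes the lysosomal protease cathepsin B (chr14:63122462-63145923), was the only called member of 16 tested cathepsins and granule proteases. It was at 2822 and 2704 CPM in ILC1 25 and 27 and at 1239.6, 1282 and 1344 CPM in NK cells, with a log2 fold change of 1.09 (SE 0.10, adjusted p of 0.0198). ILC1 26 was at 27777 CPM, and the log2 fold change with it was 3.12 (adjusted p of 0.341). Ctsz and the inhibitor Cst3 were also highest in ILC1 26 and above every NK library in all ILC1 libraries, Ctsz at 497, 5759.6 and 564 CPM against 200.2 to 222 CPM and Cst3 at 1151, 7633 and 1238 CPM against 599.8 to 672 CPM. Neither was called in the 5 libraries (adjusted p of 0.0746 and 0.0623). Ctsb is abundant in macrophages. The summed share of macrophage markers was higher in all ILC1 libraries, with 9 of the 17 at 0 in ILC1 25, and their part in the difference was not tested. Ctsw, the cathepsin of cytotoxic lymphocytes, was at 6926 and 6233 CPM in ILC1 25 and 27, at 1394 CPM in ILC1 26 and at 5461, 5189 and 5651 CPM in NK cells (adjusted p of 0.283).

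Cma1, which encodes chymase and is known as a transcript of mouse NK cells, was lower in every ILC1 library, at 409, 130.3 and 77 CPM against 2886, 2647 and 2898 CPM. The groups stood far apart, but the ILC1 libraries spread widely, and the log2 fold change of -3.55 (SE 0.76) had an adjusted p of 0.128 without ILC1 26 and of 0.149 (log2 fold change -3.78) with it. It was called when ILC1 25 was left out of the 6 libraries in place of ILC1 26, along with Baiap3, Cdc20b and Arhgef18 as lower and Bcl2a1b and Bcl2a1d as higher.

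The remaining called genes higher in ILC1 were Ckb and 1600014C10Rik. Ckb, brain-type creatine kinase, which buffers ATP (chr12:111669361-111672338), was at 396, 438 and 336 CPM in ILC1 and 20.7, 39.4 and 18.5 CPM in NK cells, with a log2 fold change of 3.79 (SE 0.48, adjusted p of 0.0466) without ILC1 26 and 3.89 (adjusted p of 0.108) with it. The open reading frame 1600014C10Rik was at 1067, 581 and 994 CPM against 362, 377 and 455 CPM (log2 fold change 1.36, SE 0.16, adjusted p of 0.0374, and 1.15 with ILC1 26, adjusted p of 0.204). In both genes ILC1 26 was above all NK libraries.

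The 5 genes called lower in ILC1 were 2010012O05Rik, Arl4c, AB124611, Atp1b1 and Anxa2. Anxa2, a calcium- and membrane-binding annexin (chr9:69453620-69491795), was the most abundant, at 4255, 3993 and 4416 CPM in ILC1 and at 8873, 9319 and 9525 CPM in NK cells. All 3 ILC1 libraries lay close together, and the log2 fold change was -1.10 (SE 0.10, adjusted p of 0.0198) without ILC1 26 and -1.13 (adjusted p of 0.117) with it. Atp1b1, the beta 1 subunit of the sodium pump (chr1:164437109-164458355), was at 370.2, 198 and 385 CPM against 1179, 1100.1 and 1101 CPM, with a log2 fold change of -1.58 (SE 0.13, adjusted p of 0.0198) and -1.83 with ILC1 26 (adjusted p of 0.149). Arl4c, a small GTPase of the ARF-like family (chr1:88673125-88702221), was at 109, 228 and 114 CPM against 451, 499 and 476 CPM (log2 fold change -2.10, SE 0.22, adjusted p of 0.0235, and -1.66 with ILC1 26, adjusted p of 0.173). These 3 genes did not overlap between the groups.

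The gene 2010012O05Rik, now named Borcs7 for a subunit of a complex that positions lysosomes (chr19:46689906-46703382), was at 164, 90.2 and 144 CPM in ILC1 and at 603, 728 and 702 CPM in NK cells, with a log2 fold change of -2.14 (SE 0.20, adjusted p of 0.0198) and -2.35 with ILC1 26 (adjusted p of 0.117). It lies between Cyp17a1 (chr19:46667165-46673172), a steroid hydroxylase, and As3mt (chr19:46707458-46741099), an arsenite methyltransferase, whose values were looked up because of their position. As3mt was at 0, 216 and 53.8 CPM in ILC1 and at 1281, 1032 and 1226 CPM in NK cells, which is far below in each ILC1 library but was not called in the 5 libraries (adjusted p of 0.169). Cyp17a1 was at 0 in ILC1 25 and 27 and at 56.7, 29.5 and 37.9 CPM in NK cells. In ILC1 26 it was at 361 CPM, above all of them. AB124611, an uncharacterised gene (chr9:21526176-21545333), was at 164 and 159 CPM in ILC1 25 and 27 and at 538, 511 and 592 CPM in NK cells, with a log2 fold change of -1.77 (SE 0.20, adjusted p of 0.0315). ILC1 26, at 586 CPM, lay within the NK range, and with it the log2 fold change was -0.85 (adjusted p of 0.663).

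Among other annexins, Anxa1 was lower in every ILC1 library, at 2324, 2291 and 1963 CPM against 3053, 2882 and 2827 CPM, but its log2 fold change of -0.46 was not called (adjusted p of 0.157). Anxa8 was at 0, 7.52 and 0.727 CPM in ILC1 and 57.1, 42.2 and 73.4 CPM in NK cells, also without a call (adjusted p of 0.126). Of the 9 annexins tested, 5 did not overlap in the direction of NK cells and 0 in that of ILC1, against 15.7% and 8.95% of all genes, and the list's median log2 fold change was -0.46.

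4 larger lists held no call in edgeR's quasi-likelihood test. Over all genes tested without ILC1 26, 8.41% were higher and 9.2% lower at an unadjusted p under 0.05. DESeq2 called 123 higher and 158 lower of 2789. The counts of each list are to be read beside these shares. All 28 genes of the mitochondrial ATP synthase and cytochrome oxidase were tested, and 25 of them had a log2 fold change above 0 without ILC1 26, with a list median of 0.51 beside -0.16 over all genes. Of the 28, 13 were higher at an unadjusted p under 0.05, against 8.41% of all genes, none was lower, against 9.2%, and DESeq2 called none. Every ILC1 library was above every NK library for 12 and below for 1, against 8.95% and 15.7% of all genes. Cox6c was at 1057, 906 and 968 CPM in ILC1 against 645, 708 and 558 CPM in NK cells, and Atp5e at 1381, 659.9 and 912 CPM against 571, 642 and 447 CPM, with adjusted p of 0.141 for both. The 39 cell cycle genes had a median of -0.44, and Ccnd3, cyclin D3, was below every NK library in all ILC1 libraries, at 781, 632 and 810.2 CPM against 1569.5, 1449 and 1623 CPM. Its adjusted p was 0.0445 without ILC1 26, but its log2 fold change of -0.97 was short of the required size. Of the 39, 4 were higher and 2 lower at an unadjusted p under 0.05, and DESeq2 called 1 higher. The 33 genes of fatty acid, cholesterol and central carbon metabolism had a median of -0.20, and Acaa2, a thiolase of mitochondrial fatty acid oxidation, was at 1039, 875 and 616 CPM against 346, 342 and 371 CPM (adjusted p of 0.128). Of the 33, 4 were higher and 3 lower unadjusted, and DESeq2 called 2 higher and 1 lower. The 26 actin cytoskeleton genes had a median of -0.17, and Actb was at 29741, 33701 and 35926 CPM against 44729, 58995 and 52542 CPM (adjusted p of 0.148). Of the 26, 2 were higher and 7 lower unadjusted, and DESeq2 called 1 in each direction.

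**Figure D4:**
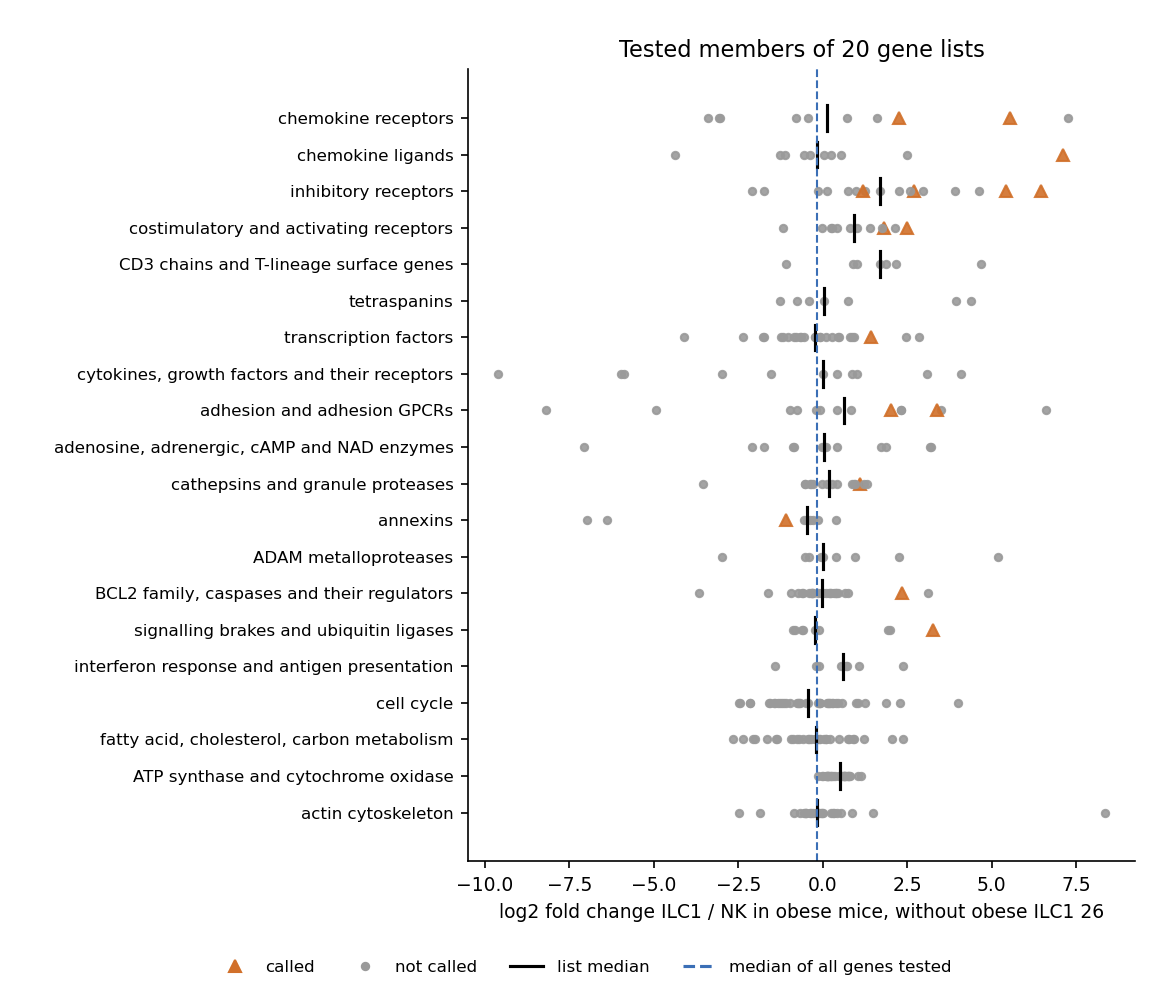
Log2 fold change of obese ILC1 over obese NK cells without ILC1 26 for the tested members of the gene lists, 1 row per list. Points are genes (triangles where called), black bars are list medians, and the dashed line is the median of all genes tested. The list drawn up as inhibitory receptors has 4 called members, and the mitochondrial list lies mostly to the right of 0 with none.

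The smaller lists below held no call in the same test. Their counts, too, stand beside 8.41% higher and 9.2% lower of all genes at an unadjusted p under 0.05. DESeq2 called 123 higher and 158 lower of 2789 genes. Of 13 tested genes for adenosine, adrenergic and NAD metabolism, 5 were higher and 1 lower at an unadjusted p under 0.05, and DESeq2 called 4 and 1. Cd38, the NAD-consuming ectoenzyme, was at 2116, 2806 and 1107 CPM in ILC1 and 469, 394 and 459 CPM in NK cells (log2 fold change 1.86, adjusted p of 0.0793). Of 7 tetraspanins, 3 were higher and 2 lower unadjusted and DESeq2 called 2 higher. Cd63, a tetraspanin of lysosomes and granules, was at 262, 634 and 331 CPM against 23.5, 24 and 9.27 CPM (log2 fold change 3.96, adjusted p of 0.0689). Of 11 cytokine and growth factor genes, 1 was higher and 3 lower unadjusted, and DESeq2 called as many. Csf2, which encodes the cytokine GM-CSF, was at 71.3, 8.35 and 137 CPM against 9.32, 4.11 and 4.64 CPM (adjusted p of 0.122). Of 9 ADAM metalloproteases, 2 were higher and 1 lower unadjusted and by DESeq2. Adam19 was at 224, 174 and 98.5 CPM against 1.62, 10.3 and 1.16 CPM (adjusted p of 0.141), and Adamts14 at 34.7, 39.3 and 91.6 CPM against 481, 451 and 549 CPM (adjusted p of 0.091). Of 8 genes of the interferon response and antigen presentation, 4 were higher and 0 lower unadjusted and DESeq2 called 2 higher. B2m, the light chain of MHC class I, was above every NK library in all ILC1 libraries, at 43684, 41404 and 38444 CPM against 24127, 25966 and 25958 CPM (log2 fold change 0.69, adjusted p of 0.091).

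When each of the 6 libraries was required to hold at least 10 counts of a gene, which removed 433 genes missing from ILC1 25 among others, 1506 genes were tested with ILC1 26 included. Of these, 18 were called higher (1.2%) and 16 lower (1.06%). The calls shared 8 of the 17 genes called higher without ILC1 26, namely Cd200r2, Cxcr6, Cd200r1, Ckb, Amica1, Asb2, Bcl2a1b and Cxcr3. They shared 3 of the 5 called lower, 2010012O05Rik, Atp1b1 and Anxa2. Called in this set and not without ILC1 26 were, among others, Cd63 (log2 fold change 4.44), Cd3g (4.27), Bcl2a1d (3.19), Cd38 (2.17) and Clec2i (1.17) as higher, and Cma1 (-3.89), Adamts14 (-3.16) and Ccnd3 (-1.10) as lower.

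Some genes were at or under 3 counts in every library of one group and above 3 counts in every library of the other. Arnt2, a partner of basic helix-loop-helix factors, was at least 95.3-fold higher in ILC1 than the floor of 3 counts per library in NK cells, and Actn2, an actinin, at least 62.4-fold higher. There were 3 such genes higher in ILC1 and 57 higher in NK cells, of the 5545 analysed. The TMM-scaled totals of ILC1 25 and 26 were 1612687 and 1197138, against 2467700 to 2917931 in the NK libraries. The part of depth, and of the genes missing from ILC1 25, in these numbers was not tested. Cdh22, a cadherin, was at 15, 12.7 and 16.6 CPM in NK cells and at 0 in all ILC1 libraries, so at least 8.12-fold higher in NK cells. Avil, an actin-binding protein of the villin family, was at least 23.9-fold higher in NK cells. These bounds compare group means with the floor, so a single library can set them. They are lower bounds on the observed ratio of the group means, and cover neither all counting error nor the spread between libraries.

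The lean libraries provided a wider estimate of the spread and a second setting for the same contrast. With the 5 obese libraries and the 6 lean ones in 1 model of 4 groups, 33 of 2698 genes were called higher in obese ILC1 (1.22%) and 18 lower (0.667%). These included 16 of the 17 genes called higher in the 5 libraries and all 5 called lower. The model added Ccr8 (log2 fold change 7.25, SE 1.60, adjusted p of 0.0428), Cd3g (4.68, SE 0.60, adjusted p of 0.00251), Cd63 (3.95, SE 0.59, adjusted p of 0.0064), Bcl2a1d (3.12, SE 0.58, adjusted p of 0.0208), Cd38 (1.86, SE 0.28, adjusted p of 0.00649), Csf2 (4.08, SE 0.92, adjusted p of 0.048) and Cd27 (1.02, SE 0.21, adjusted p of 0.0372) as higher in obese ILC1. It also called Cd101, an inhibitory receptor, at 213, 141 and 184 CPM in ILC1 and 10.9, 2.74 and 10 CPM in NK cells (log2 fold change 4.63, adjusted p of 0.0257). Called lower were Cma1 (-3.55, SE 0.78, adjusted p of 0.0428), Cd2 (-1.19, adjusted p of 0.0257), Bhlhe40 (-1.17, adjusted p of 0.034), Cd247 (-1.10, adjusted p of 0.048) and both neighbours of 2010012O05Rik, As3mt (-5.42, adjusted p of 0.0361) and Cyp17a1 (-9.52, adjusted p of 0.0375). Among the lean libraries, NK 27 had the fewest genes with a count, 1948. All of these values leave out obese ILC1 26. With ILC1 26 added, all 12 libraries in the model gave 14 higher (0.537%) and 10 lower calls (0.384%).

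In the lean liver, the same 11-library model called 52 genes higher in ILC1 (1.93%) and 32 lower (1.19%). Of the 22 genes called in the obese libraries, 22 had the same sign in the lean ones, beside 1642 of all 2698 genes, and 15 of the 17 higher and 4 of the 5 lower were called there too. Adgrg5 was called in the lean liver with a log2 fold change of 4.19 (adjusted p of 0.0172). Batf (0.60, adjusted p of 0.189), 1600014C10Rik (0.80, adjusted p of 0.166) and Arl4c (-1.15, adjusted p of 0.0954) were not called there. Across all 2698 genes the obese and lean differences had a Pearson's r of 0.417 and a Spearman's rho of 0.338, as a description over genes, which are not independent replicates.

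**Figure D5:**
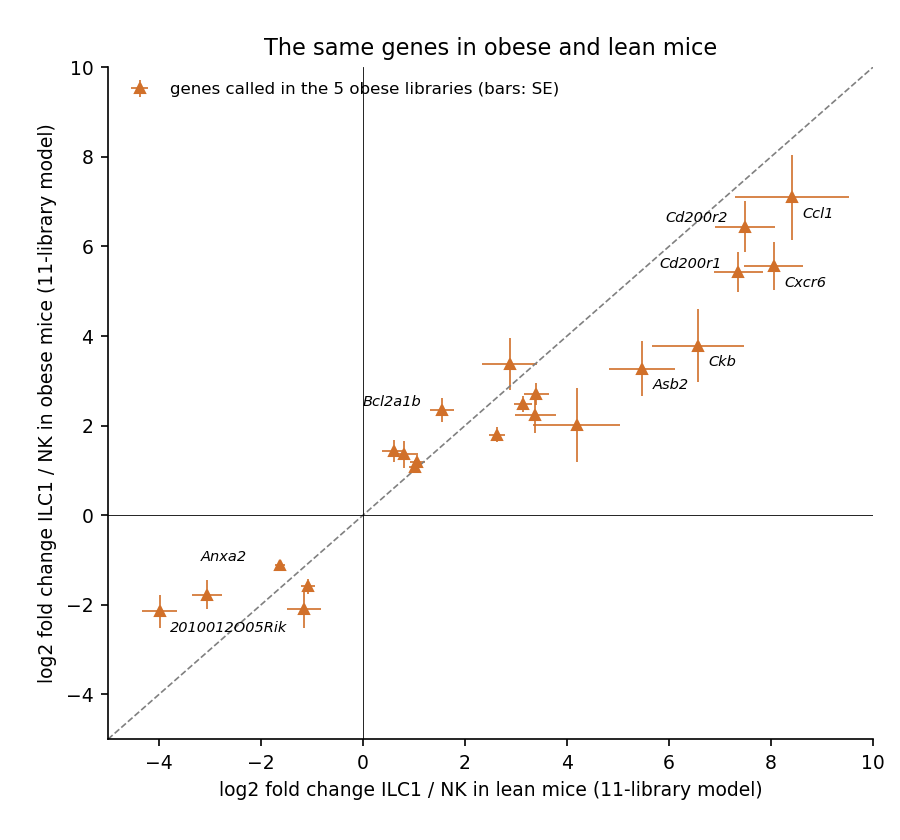
Log2 fold change of ILC1 over NK cells in obese mice without ILC1 26 (vertical axis) and in lean mice (horizontal axis) for the 22 genes called in the 5 obese libraries, from 1 model of 11 libraries. Bars are standard errors and the dashed line marks equal differences. All 22 lie on the same side of 0 in both diets, with Cxcr6, Cd200r1 and Ckb farther from 0 in lean mice.

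Whether the difference between ILC1 and NK cells itself differed between obese and lean mice was tested as an interaction, and edgeR's quasi-likelihood test called 0 of 2698 genes without ILC1 26 (percent called 0.0) and 0 of 2606 with it. At an unadjusted p under 0.05, 97 genes were higher and 111 lower without ILC1 26, and DESeq2 called 7 and 23. Cxcr6 was 8.05 log2 units higher in ILC1 than in NK cells of lean mice and 5.55 in the same model in obese mice, a difference of -2.50 (SE 0.67, unadjusted p of 0.00364, adjusted p of 0.549). Lean NK cells held 51.5, 38.6 and 28.9 CPM and lean ILC1 10849, 9234 and 11981 CPM of Cxcr6, so every obese NK library was above every lean NK library and every obese ILC1 library below every lean ILC1 library. Cd200r1 was 7.36 log2 units higher in lean ILC1 and 5.43 in obese ILC1 (difference -1.93, SE 0.58, adjusted p of 0.549), with lean NK cells at 18.1, 7.3 and 5.22 CPM and lean ILC1 at 1884, 1418 and 1845 CPM. Its obese NK libraries, too, were all above the lean ones, while obese ILC1 25 and 27 were above and ILC1 26 below all lean ILC1 libraries. Ccl1 was 8.41 log2 units higher in lean ILC1, which held 106, 20.2 and 101 CPM, and 7.09 higher in obese ILC1 (adjusted p of the difference 0.917). Anxa2 was 1.63 log2 units lower in lean ILC1 and 1.11 lower in obese ILC1 (difference 0.52, SE 0.15, adjusted p of 0.549).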

How the data were processed

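Liver NK cells and ILC1 of 3 obese and 3 lean mice were sequenced, 12 libraries in all. The authors deposited, in 1 table, unnormalized read counts per gene and library and a score, the counts divided by a factor per library and rounded, which was not used, nor were the fold changes and p-values beside it. The submitters' processing notes name bcl2fastq 2.19, Trimmomatic 0.36.5, STAR 2.5.2b and featureCounts 1.6.0.2 with build mm10, and the methods name SARTools, whose thresholds (adjusted p under 0.05, fold change over 2) were kept. The genes analysed were the 5545 with complete rows. The totals, 1666637 to 2826766 counts per obese library, cover these genes only.

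Obese ILC1 were compared with obese NK cells in R 4.3.3 with edgeR 4.0.16 (TMM, filterByExpr, glmQLFit, glmQLFTest) and Benjamini-Hochberg adjustment over all genes tested, with and without ILC1 26, and checked with DESeq2 1.42.0 and by other alternatives. The scripts were tested on simulated data. SE is the log2 fold change over the root of F. CPM used TMM-scaled totals. Sums over marker lists were compared by exact permutation of libraries (Python 3.11.15). No 2 libraries were identical, and pairs within groups differed by more than sampling noise. The design states that both cell types came from each mouse, so same-numbered libraries are pairs, and the correlations of their deviations from the group means were -0.057, -0.0504 and 0.134. A count of 3 was the floor for lower bounds.

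The comparison and the gene lists were chosen with earlier results of these data known. Genes were named by a rule: up to 10 per direction with the largest change and with the highest level among called genes, those whose call rested on ILC1 26, the 4 members of each list with the smallest p, the 4 highest members of each marker list in ILC1 26, and Alb, Csf1r and Cd79a. Cell type markers (Cd69 and Cd244 among them) were listed apart. 1600014C10Rik, Arhgef18, Arnt2, As3mt, Avil, Baiap3, Cd101, Cd2, Cdc20b and Cyp17a1 were chosen after their values were seen. Gene positions are from GENCODE vM21 on GRCm38, by symbol, and promoter sequences from RefSeq.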

Additional observations from a re-analysis of the deposited data

How the results depend on the processing

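Counts of calls depended on the tool and on single libraries, and the cause was not tested. With all 6 libraries, where edgeR's quasi-likelihood test called 0 genes, DESeq2 called 109 higher and 64 lower, the likelihood-ratio test 64 and 26, at least 10 counts in every library 18 and 16, and the model of all 12 libraries 14 and 10, while leaving out 1 library gave 0 to 17 higher and 0 to 5 lower (17 and 5 without ILC1 26, 2 and 4 without ILC1 25). With the replicate block the 6 libraries gave 0 calls. Without ILC1 26, where 17 and 5 were called, DESeq2 called 123 and 158, the likelihood-ratio test 81 and 118, at least 10 counts in every library 41 and 26, the 11-library model 33 and 18, and the replicate block 7 and 0. Leaving out 1 further library gave 0 to 421 higher and 0 to 1001 lower, the ends being NK 25 or NK 27 left out and ILC1 27 left out, which leaves ILC1 25 alone. Robust dispersions, no fold threshold, no filter on low counts and DESeq2's size factors in edgeR kept both counts within 1.5 times.

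The interaction with diet, 0 genes in each direction by the quasi-likelihood test, became 6 higher and 15 lower with DESeq2 and 4 and 5 with the likelihood-ratio test, and without ILC1 26 7 and 23 and 3 and 12. Leaving out 1 library gave 0 to 0 higher and 0 to 1 lower with ILC1 26 (Ckb without lean NK 26, Cdh17 without obese ILC1 25), and 0 to 71 and 0 to 311 without it, the ends being obese ILC1 27 left out.

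Of 70 log2 fold changes over 6 libraries, 6 of 962 alternatives turned the direction: Cd244 (0.14, from -0.87 to 0.14 over the 6 libraries left out in turn) and Ctsw (0.27, from -0.52) without ILC1 26, Cx3cr1 without ILC1 25 (0.26) or ILC1 27 (0.12, down to -3.04 without ILC1 26), and Cyp17a1 without ILC1 26 (-9.68, up to 2.13 without ILC1 27) or with the replicate block (-5.64). None of 285 alternatives turned a called log2 fold change of the 5 libraries, and 82 lost the call. Across these comparisons the median log2 fold change of all genes tested was 0.00145 with 6 libraries, -0.155 with 5, -0.428 with 5 and the block, and with DESeq2 0.154 and -0.401. The totals of ILC1 25 and 26 were the lowest of the 6, with 2014 and 3292 genes with a count. The part of depth in the comparison was not tested.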
